A study of Mus musculus with 10 samples.

Results

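Genes that build the nuclear pore, carry cargo through it and form the nuclear lamina were examined for ARID2 at their transcription start sites (TSSs) in mouse spermatocytes. The genes were taken by symbol (nucleoporins, importins, exportins, karyopherins, Ran and its regulators, lamins, SUN proteins and related inner membrane proteins), which gave 72 of 21774 protein-coding genes. Of these, 26 encode nucleoporins, 31 transport receptors or Ran cycle proteins and 9 lamina or inner membrane proteins. The other 6 (Nupr1, Nupr1l, Ranbp9, Ranbp10, Lmntd1 and Lmntd2) share a name stem with the set, and their products are not core pore, transport or lamina proteins.

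ARID2 is the DNA-binding subunit that distinguishes PBAF from other SWI/SNF chromatin remodelers. CUT&RUN, in which a nuclease tethered by an antibody releases the DNA around its target for sequencing, was performed on spermatogenic cells of CD1 mice. No genetic modification is given for these animals. Spermatogenesis was synchronized in every group. Pups received WIN 18,446, an inhibitor of retinoic acid synthesis, at 100 ug/g from P1 to P10, followed at P11 by a single 10 ul injection of retinoic acid at 10 ug/ul. Cells were collected at P28 or P28.5 from tubules enriched for late prophase-I and metaphase spermatocytes. They were isolated by digestion and filtration, so that other cells of the tubule may be present. The paper reports more round spermatids, and a markedly lower proportion of leptotene and zygotene spermatocytes, in tubules at P28.5 than at P28. The lists hold no expression values with which to check the cell type. For a gene listed at 1 age alone, a change in ARID2 within a cell type and a change in the mix of cells cannot be told apart. At each age there were 2 ARID2 libraries, 2 BRG1 libraries and 1 control library without IgG. The ARID2 values are the lists of cluster-1 (Cl-1), the TSSs that the authors grouped as ARID2-enriched at each age. Each row of a list holds a position and a gene symbol. The replicates had been averaged before clustering, so these lists give neither a replicate spread nor a test between ages, and the depth behind each TSS is unknown.

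The nuclear pore complex is a ring-shaped channel of nucleoporins, with a membrane anchor, stacked scaffold rings, a central channel lined by FG repeats, cytoplasmic filaments and a nuclear basket. Importins and exportins carry cargo through it in a direction set by the small GTPase Ran, and the lamina supports the envelope from within. In meiotic prophase the envelope also anchors telomeres through SUN proteins, and the pores and lamina come apart before the first division.

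In Cl-1, 18 of the 72 members were listed at P28 (25%, 95% Wilson interval 16.4% to 36.1%), beside 16.8% of all protein-coding genes. At P28.5, 19 members were listed (26.4%, 17.6% to 37.6%), beside 11.6% of all genes. Both ages listed 14 members (19.4%, 12% to 30%), beside 8.48% of all genes. At either age 23 members were listed (31.9%, 22.3% to 43.4%), beside 19.9% of all genes. Of the members listed at P28, 77.8% were also listed at P28.5, and of those at P28.5, 73.7% were also listed at P28. For all protein-coding genes these shares were 50.5% and 73.1%. On the plus strand alone they were 80% and 70.6% for members and 57% and 72.8% for all genes. Ndc1, Nup54, Ranbp2 and Xpo5 appeared in the P28 list alone, and Nup205, Nup214, Nup35, Nupl2 and Ran in the P28.5 list alone. These 4 and 5 members stand beside 8.33% and 3.13% of all genes. The intervals treat genes as independent draws and cover counting error only.

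Listing by name differed between members on the plus and minus strands. Of the 11553 rows at P28, 5174 equalled no lower end of a transcript in the RefSeq annotation used here, nor did 4030 of the 8514 rows at P28.5. The release behind the lists is not given in the sources used here, and the distances below are to the 5′ ends of this annotation. Among positions that did equal a transcript end, nearly all were the end with the lower coordinate, which is the TSS of a plus-strand gene and the 3′ end of a minus-strand gene. The ages differed here, with 1485 rows at a minus-strand 3′ end alone at P28 and 123 at P28.5. A minus-strand TSS was equalled by 9 rows in the P28 list and by 8 in the later list. Among the 29 plus-strand members, 15 were in the list at P28 (51.7%, 34.4% to 68.6%) and 17 at P28.5 (58.6%, 40.7% to 74.5%), and 12 at both ages (41.4%, 25.5% to 59.3%). The shares of all plus-strand protein-coding genes were 26.0%, 20.4% and 14.8%, and 31.6% were listed at either age. Among the 43 minus-strand members, 3 were in the list at P28 (6.98%, 2.4% to 18.6%) and 2 at P28.5 and at both ages (4.65%, 1.28% to 15.5%). The shares of all minus-strand genes were 7.61%, 2.86% and 2.14%, and 8.34% were listed at either age. A minus-strand member that was not listed therefore carries little information about ARID2 at its TSS, and the roles below are read mainly from plus-strand members.

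**Figure D1:**
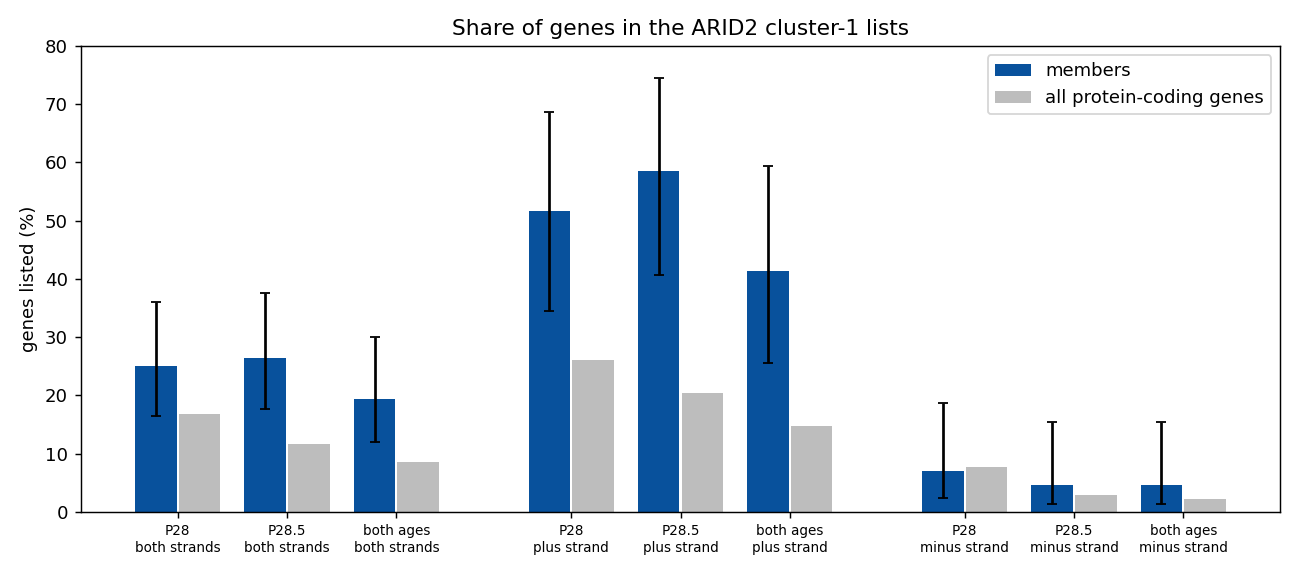
Share of genes listed in Cl-1 (y axis, percent) at P28, at P28.5 and at both ages, for both strands together and for each strand. Blue bars are the members with 95% Wilson intervals and grey bars all protein-coding genes; plus-strand members reach 51.7% and 58.6%, and minus-strand members stay at or under 6.98%.

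Nucleoporins made up 15 of the 23 members listed at either age. By strand, 12 of 17 plus-strand and 3 of 9 minus-strand nucleoporin genes were listed at either age, beside 31.6% and 8.34% of all genes on those strands. Of these 26 genes, 8 were listed at both ages, 3 in the P28 list alone and 4 in the P28.5 list alone, beside 8.48%, 8.33% and 3.13% of all genes. Of the 17 on the plus strand, these counts were 6, 2 and 4, beside 1614, 1217 and 602 of all 10871 plus-strand genes.

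**Figure D2:**
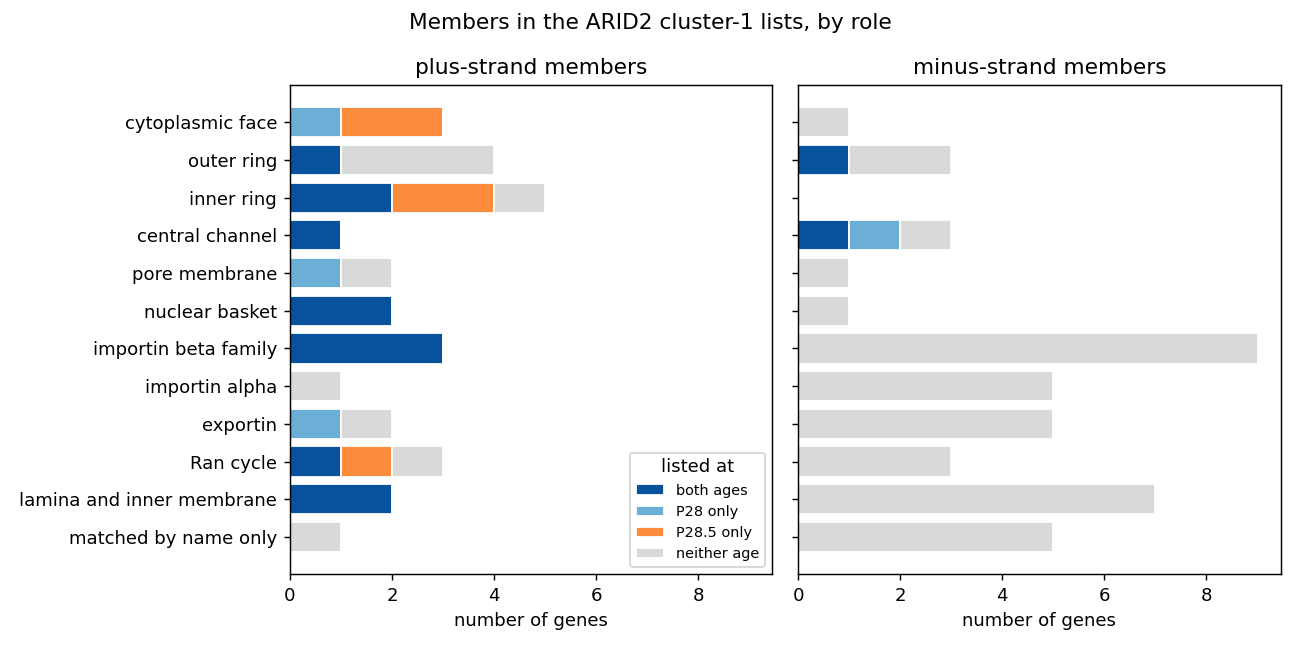
Number of members (x axis, genes) in each role (y axis) on the plus strand (left) and minus strand (right), coloured by the ages at which they were listed. The 3 plus-strand importin beta family genes, 2 basket genes and 2 lamina and inner membrane genes were each listed at both ages, and the 3 plus-strand genes of the cytoplasmic face at 1 age each. Both ages listed 1 of 4 plus-strand genes in the outer ring, 2 of 5 in the inner ring, 1 of 1 in the channel and 1 of 3 in the Ran cycle. They listed 0 of 2 for the pore membrane, 0 of 2 exportin, 0 of 1 importin alpha and 0 of 1 name-only genes. The share of all plus-strand genes was 14.8% at both ages and 31.6% at either age.

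On the cytoplasmic face, each of the 3 plus-strand genes was listed, but at a single age. Among all 10871 plus-strand genes, 31.6% were listed at either age. The P28 list held 1217 genes that the later list lacked, and the P28.5 list held 602 that the earlier list lacked. Ranbp2, which forms the cytoplasmic filaments and is a SUMO E3 ligase, was listed at P28 with 1 row, at its annotated 5′ end (chromosome 10, position 58446852). Nup214, an FG nucleoporin that docks export complexes, was listed at P28.5 at 2 annotated 5′ ends (chromosome 2, positions 31974418 and 31974450). Nupl2, also called Nup42 and a factor of mRNA export, was listed at P28.5 at its 5′ end (chromosome 5, position 24164963). At P28 the nearest listed position lay 77609 bp from a Nup214 5′ end and 199827 bp from one of Nupl2. For Ranbp2, the nearest position at P28.5 was 123386 bp away. Nup88, the partner of Nup214, lies on the minus strand and was not listed under its own name.

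In the outer ring, whose Y-shaped complexes form the cytoplasmic and nuclear rings of the pore, Nup85 and Nup98 were listed at both ages. Nup85 had 4 rows at 4 positions at each age (chromosome 11, positions 115564436 to 115564530). Of these, 1 was an annotated 5′ end and 3 lay in the first exon, at most 35 bp from a 5′ end. Nup98 encodes a precursor that is cut into Nup98 and Nup96. It lies on the minus strand, and its 2 listed positions were 47 and 66 bp upstream of its 5′ end (chromosome 7, positions 102210213 and 102210232). The plus-strand gene Pgap2 starts 7 bp from that 5′ end, and positions listed as Pgap2 lay 169 and 194 bp upstream of it at both ages. Nup37, Nup43 and Nup160, plus-strand genes of the same complex, were listed at neither age, nor were the minus-strand genes Nup107 and Nup133. The nearest listed position at P28.5 lay 4133 bp from the 5′ end of Nup43, against 42897 bp for Nup160 and 312516 bp for Nup37.

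In the inner ring, the scaffold around the channel, all 5 genes lie on the plus strand. Nup188 and Nup93 were listed at both ages, Nup205 and Nup35 at P28.5 alone and Nup155 at neither age. Nup188 was listed at an annotated 5′ end and 11 bp into the first exon (chromosome 2, positions 30286422 and 30286433). Nup93 was listed 24 bp upstream of a 5′ end and 37 bp into the first exon (chromosome 8, positions 94214540 and 94214601). Nup205 had 4 rows at P28.5, with 3 rows at 2 annotated 5′ ends and 1 row 2 bp upstream of a further 5′ end (chromosome 6, positions 35177616, 35177716 and 35178049). Nup35, which binds membrane, was listed at 2 annotated 5′ ends (chromosome 2, positions 80638812 and 80639264). At P28 the nearest listed position was 43799 bp from Nup205 and 323346 bp from Nup35. For Nup155 the distance was 59713 bp at P28, and it was 961947 bp in the later list.

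The start regions of 4 of these genes show what the listed and unlisted TSSs of a single ring look like. Sequences are from RefSeq (GRCm38.p6, the assembly behind mm10), plus strand, and run from 150 bases before the annotated start to the first 30 transcribed bases. Capitals mark exact matches, on either strand, to 1 of 11 motifs searched. The motif of ETS factors was searched as CCGGAAG, that of NRF1 as GCATGCGC, that of YY1 as AAGATGGCG and that of NFY as CCAAT. SP and KLF factors were represented by GGGCGG, the CRE by TGACGTCA, ZBTB33 by CTCGCGAG and E2F by TTTCCCGC or TTTGGCGC. The letters for RFX factors were GTTGCCA, those for MYB proteins were AACTG, and the box bound by TBP at some core promoters was searched as TATAAA. The Nup188 region is chr2:30286266-30286445, that of Nup93 chr8:94214414-94214593, that of Nup205 chr6:35177466-35177645 and that of Nup155 chr15:8109163-8109342.
Nup188: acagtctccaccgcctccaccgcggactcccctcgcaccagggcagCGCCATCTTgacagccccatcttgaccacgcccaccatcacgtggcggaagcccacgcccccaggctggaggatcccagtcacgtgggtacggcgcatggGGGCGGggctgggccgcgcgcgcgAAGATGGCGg
Nup93: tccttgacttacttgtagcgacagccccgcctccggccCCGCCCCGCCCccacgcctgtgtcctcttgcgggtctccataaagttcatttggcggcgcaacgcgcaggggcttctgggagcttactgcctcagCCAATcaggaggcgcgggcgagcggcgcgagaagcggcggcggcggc
Nup205: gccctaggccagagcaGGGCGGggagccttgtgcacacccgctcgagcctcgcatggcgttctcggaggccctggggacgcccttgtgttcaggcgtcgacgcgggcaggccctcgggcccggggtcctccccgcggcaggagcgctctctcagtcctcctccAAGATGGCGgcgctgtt
Nup155: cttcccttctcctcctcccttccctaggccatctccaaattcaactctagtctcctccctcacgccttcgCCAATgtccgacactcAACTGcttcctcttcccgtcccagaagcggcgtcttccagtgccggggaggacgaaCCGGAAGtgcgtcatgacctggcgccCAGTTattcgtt
Nup188 and Nup205 each held a YY1 match downstream of the start, 20 and 13 bases from it, and Nup188 held another 104 bases upstream. Both also held an SP/KLF match, 4 bases upstream in Nup188 and 134 bases upstream in Nup205. Nup93 held a pair of SP/KLF matches 112 and 107 bases upstream and an NFY match 17 bases upstream. Nup155, listed at neither age, held an ETS match 8 bases upstream, 1 NFY match and 2 MYB matches. In the longer promoters of 300 bases counted below, Nup155 also held an SP/KLF match, and Nup93 and Nup205 each held an MYB match.

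In the central channel, Nup62 and Nupl1 were listed at both ages and Nup54 at P28 alone. The products of these 3 genes form the FG-repeat trimer of the channel. Nup62 was listed at its annotated 5′ end (chromosome 7, position 44816088). Nupl1, also called Nup58, lies on the minus strand. It was listed 14 bp upstream of its 5′ end and 5 bp into its first exon (chromosome 14, positions 60251493 and 60251474). The latter position equals the start of the plus-strand gene Gm38641. Nup54, also on the minus strand, had 1 row, 132 bp upstream of its nearest 5′ end and within the first exon of a longer transcript (chromosome 5, position 92434797). The plus-strand gene Gm42114 starts 54 bp from that 5′ end. Nup62cl, a Nup62 relative and the X-linked member, was not listed.

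Of the membrane proteins that anchor the pore, Ndc1 was listed at P28, with 1 position 263 bp upstream and 1 position 97 bp downstream of its 5′ end (chromosome 4, positions 107367784 and 107368144). At P28.5 the nearest listed position was 114113 bp away. Nup210 and Nup210l, its paralogue, were not listed. In the nuclear basket, Tpr and Nup50 were listed at both ages. Tpr, the coiled-coil protein of the basket filaments, was listed at its 5′ end and 5 bp into the first exon (chromosome 1, positions 150392838 and 150392843). Nup50, which assists importin alpha in releasing cargo, was listed at its 5′ end (chromosome 15, position 84923428). Nup153, a minus-strand basket gene, was not listed.

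The start regions of the plus-strand channel and basket genes listed at both ages are given in the same format. They are chr7:44815938-44816117 (Nup62), chr15:84923278-84923457 (Nup50) and chr1:150392688-150392867 (Tpr).
Nup62: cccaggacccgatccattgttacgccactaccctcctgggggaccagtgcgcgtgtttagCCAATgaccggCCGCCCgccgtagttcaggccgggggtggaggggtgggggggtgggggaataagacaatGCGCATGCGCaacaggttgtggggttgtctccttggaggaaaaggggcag
Nup50: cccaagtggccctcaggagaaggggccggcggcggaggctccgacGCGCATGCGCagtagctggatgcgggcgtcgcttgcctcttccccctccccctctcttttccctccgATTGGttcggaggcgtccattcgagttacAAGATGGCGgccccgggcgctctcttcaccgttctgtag
Tpr: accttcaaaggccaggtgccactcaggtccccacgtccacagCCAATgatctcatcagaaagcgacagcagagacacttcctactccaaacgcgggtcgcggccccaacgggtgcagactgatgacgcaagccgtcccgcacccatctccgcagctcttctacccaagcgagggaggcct
Nup62 and Nup50 shared the same run of 10 capitals, in which 2 NRF1 matches on opposite strands overlap. In Nup62 it began 20 bases and in Nup50 105 bases upstream of the start. Nup50 also held a YY1 match 9 bases upstream, NFY matches were found in all 3 regions, and Nup62 held an SP/KLF match 79 bases upstream. Tpr held no other match in this window.

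Among the 12 genes of the importin beta family, Ipo5, Ipo7 and Tnpo2 lie on the plus strand. All 3 were listed at both ages, beside 14.8% of all plus-strand genes. The 9 minus-strand genes (Ipo4, Ipo8, Ipo9, Ipo11, Ipo13, Tnpo1, Tnpo3, Kpnb1 and Ranbp6) were not listed. Tnpo2, a relative of the import receptor transportin 1, had 12 rows at 9 positions at each age (chromosome 8, positions 85036870 to 85037168). Each of these lay at most 22 bp from an annotated 5′ end. Ipo7 was listed 67 bp upstream and 110 bp downstream of its 5′ end (chromosome 7, positions 110018248 and 110018425). Ipo5, an importin of histones and ribosomal proteins, was listed at a different position at each age. At P28 its 2 rows lay at position 120913799 of chromosome 14, in an intron and 2048 bp upstream of the nearest annotated 5′ end. At P28.5 its row lay at position 120911146, 48 bp upstream of another 5′ end and also within an intron of a longer transcript.

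Regions of Tnpo2 (chr8:85036743-85036922) and Ipo5 (chr14:120911044-120911223, at the start nearest its P28.5 position) are shown as members listed at both ages with a listed position within 50 bp of the start.
Tnpo2: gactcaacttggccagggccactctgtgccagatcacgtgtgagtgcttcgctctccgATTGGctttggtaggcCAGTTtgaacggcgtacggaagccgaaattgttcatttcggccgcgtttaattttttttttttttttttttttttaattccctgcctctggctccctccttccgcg
Ipo5: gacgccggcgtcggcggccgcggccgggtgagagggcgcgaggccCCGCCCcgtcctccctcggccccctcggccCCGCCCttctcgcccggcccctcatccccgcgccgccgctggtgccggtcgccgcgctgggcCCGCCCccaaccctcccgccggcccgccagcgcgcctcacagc
Tnpo2 held an NFY match 92 bases and an MYB match 76 bases upstream. Ipo5 held 3 SP/KLF matches, 105, 75 and 13 bases upstream.

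The importin alpha genes, adaptors that bind nuclear localization signals, were all unlisted (Kpna1, Kpna2, Kpna3, Kpna4, Kpna6 and Kpna7). Only Kpna1 lies on the plus strand, and its nearest listed position was 88297 bp away at each age. Of 7 exportin genes, Xpo5, which exports microRNA precursors, was listed, at P28 and 44 bp into its first exon (chromosome 17, position 46202855). At P28.5 the nearest listed position was 41650 bp away. Xpo1, which encodes the general export receptor CRM1 and also lies on the plus strand, was listed at neither age. The closest listed position to Xpo1 was 265316 bp from it at P28 and 409935 bp in the later list. The minus-strand genes Xpo4, Xpo6, Xpo7, Xpot and Ranbp17 were not listed.

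In the Ran cycle, Ranbp3, a cofactor of CRM1, was listed at both ages with 5 rows, 4 at an annotated 5′ end and 1 row 61 bp into the first exon (chromosome 17, positions 56673225 and 56673294). Ran, the GTPase itself, was listed at P28.5 alone, at an annotated 5′ end and 6 bp upstream of another (chromosome 5, positions 129020156 and 129020186). At P28 the nearest listed position was 43386 bp from Ran. Ranbp3l, a plus-strand relative of Ranbp3, was not listed. The genes for the Ran exchange factor Rcc1, the Ran GTPase-activating protein Rangap1 and the Ran-GTP binding protein Ranbp1 lie on the minus strand and were not listed under their own names.

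In the lamina and inner membrane, both plus-strand genes were listed at both ages, beside 14.8% of all plus-strand genes. Lmnb1, a B-type lamin, was listed at its 5′ end with 1 row. Sun1, the inner membrane protein that attaches telomeres to the envelope in meiotic prophase, had 22 rows at 12 positions at each age, the most of any member. These positions spanned 139200556 to 139200677 on chromosome 5. They comprised 8 positions within 8 bp upstream of the gene, 3 annotated 5′ ends and 1 first-exon position. The annotation gives Sun1 28 transcripts, and a row count is not a measure of ARID2 signal. The minus-strand genes Lmna, Lmnb2, Lbr, Tmpo, Sun2, Sun3 and Sun5 were not listed by name. The lower end of Lmnb2, which is its 3′ end, was listed at both ages under the neighbouring gene Timm13, 5049 bp from the Lmnb2 5′ end (chromosome 10, position 80901363).

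The Sun1 start region (chr5:139200487-139200666) is shown as that of the member with the most rows.
Sun1: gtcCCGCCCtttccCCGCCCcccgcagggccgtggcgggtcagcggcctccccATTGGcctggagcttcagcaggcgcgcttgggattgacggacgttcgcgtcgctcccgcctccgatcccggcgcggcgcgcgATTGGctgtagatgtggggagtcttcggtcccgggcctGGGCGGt
It held NFY matches 97 and 15 bases upstream, SP/KLF matches 147 and 136 bases upstream and an SP/KLF match 23 bases downstream.

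The rows are filed as positions of genes and not of ARID2 peaks, so the distance of a listed position from a 5′ end does not locate ARID2. At P28 the 15 listed plus-strand members had 43 distinct positions, of which 13 were annotated 5′ ends and 37 lay within 50 bp of a 5′ end. At P28.5 the 17 listed plus-strand members had 49 positions, of which 20 were 5′ ends and 46 lay within 50 bp. The median distance was 4 bp at P28 and 2 bp at P28.5. Of the 14 members listed at both ages, 13 had identical positions at the 2 ages, as had 82.5% of all genes listed at both, and Ipo5 was the exception. The nearest listed position to a plus-strand member not listed at that age was at least 42897 bp from it at P28 (Nup160), but 4133 bp in the later list (Nup43).

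**Figure D3:**
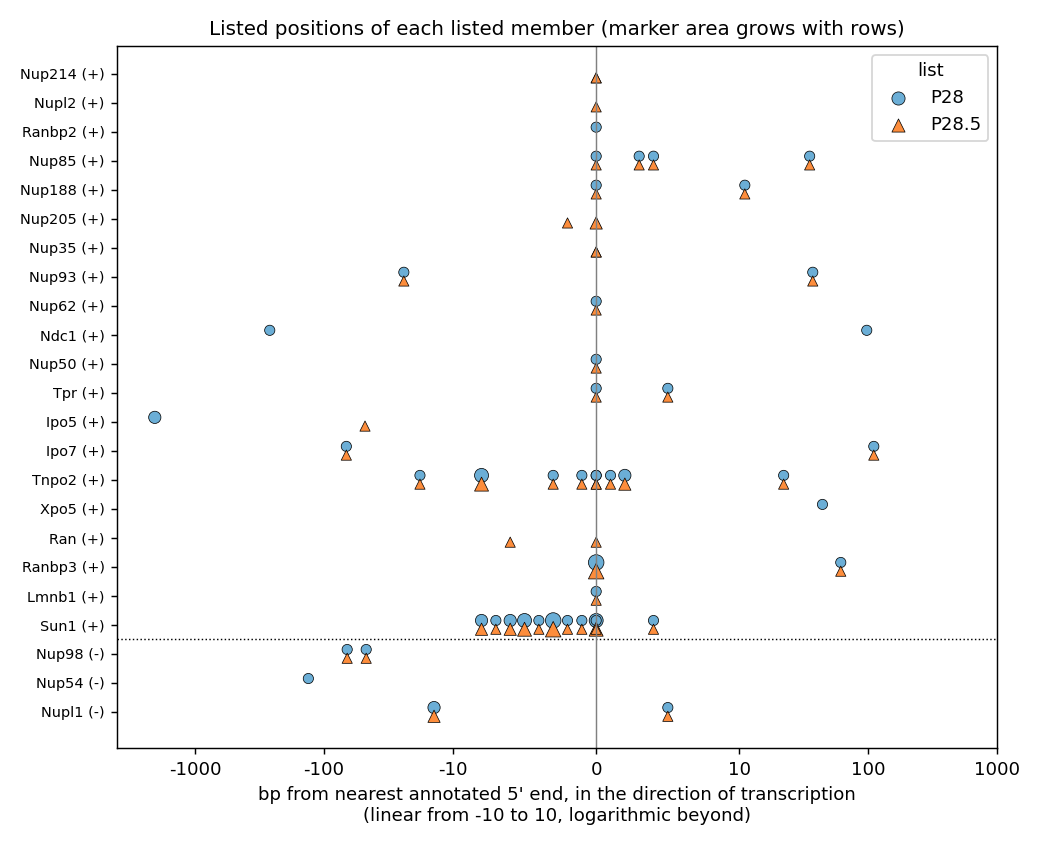
Distance of each listed position from the nearest annotated 5′ end of its member (x axis, bp in the direction of transcription, linear to 10 bp and logarithmic beyond) for the 23 listed members (y axis, strand in brackets). Circles are P28 and triangles P28.5, with an area that grows with the number of rows; Ipo5 at P28 lies farthest out, at 2048 bp upstream, and the 3 minus-strand members are at the bottom.

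Start sites of minus-strand members came into view where a plus-strand gene begins close by. Of the 43 minus-strand members, 15 had an annotated plus-strand 5′ end within 1000 bp of their own, and 7 of these had a listed position within 2000 bp of their 5′ end at either age. None of the other 28 had. Among all minus-strand protein-coding genes, the shares were 45.4% of 2385 with such a neighbour and 2.11% of 8518 without. Besides Nup54, Nup98 and Nupl1, these were Nup88, Ranbp1, Ranbp10 and Sun3, each under the name of a neighbour. The start of Nup88 lay 227 bp from a position listed as Rpain at both ages (chromosome 11, position 70970200). Ranbp1 lay 164 bp from a position listed as Trmt2a at P28.5 (chromosome 16, position 18248858). Ranbp10 is a ubiquitin ligase scaffold in the set by name alone. An internal 5′ end of Ranbp10 lay 489 bp from a position listed as Tsnaxip1 at both ages (chromosome 8, position 105827697). An internal 5′ end of Sun3, a SUN protein of spermatids, lay 51 bp from a position listed as Gm11992 at P28 (chromosome 11, position 9048592). The positions near Ranbp10 and Sun3 lay within an intron of a longer transcript of the member. For all 7 members, listed under their own name or not, ARID2 at the member and at its plus-strand neighbour cannot be told apart.

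Counted by position within 2000 bp whatever the name, 14 of 29 plus-strand members were found at P28 (48.3%) and 17 at P28.5 (58.6%), beside 25.0% and 20.9% of all plus-strand genes. Of the minus-strand members, 6 were found at P28 (14%) and 5 at P28.5 (11.6%), beside 9.58% and 8.62% of all minus-strand genes.

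Members had CpG-rich starts. The median CpG ratio (observed over expected, within 500 bp of the outermost 5′ end) was 0.792 for the 72 members, against 0.516 for all protein-coding genes, and 54 of the 72 fell in the upper 2 of 5 quintiles. Of the 24 plus-strand members in these quintiles, 14 were listed at P28, 16 at P28.5 and 11 at both ages. All plus-strand genes of the same quintiles were listed at 42.9%, 40.1% and 29.5%, beside the 26.0%, 20.4% and 14.8% of plus-strand genes overall. The quintiles differed. In quintile 5, the most CpG-rich, 7 of 14 members were listed at P28, 9 at P28.5 and 5 at both ages, beside 46.3%, 47.1% and 34.6% of genes, so that the shares at P28 and at both ages were close to those of all genes. In quintile 4, 7 of 10 members were listed at P28, 7 at P28.5 and 6 at both ages, beside 39.5%, 33.2% and 24.4%. Of the 5 plus-strand members in the lower quintiles, Ipo5 was listed, at both ages, beside 14.7% of such genes at P28 and 7.04% at P28.5. The ratio for Ipo5 (0.312) was measured at another start than the ones listed. The median was 0.773 for the 12 plus-strand members listed at both ages, 0.858 for the 8 listed at 1 age and 0.733 for the 9 listed at neither. The ranges of these groups overlapped, and Kpna1, with a ratio of 1.03, was among the unlisted. The part of CpG content in the listing of the members was not tested.

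**Figure D4:**
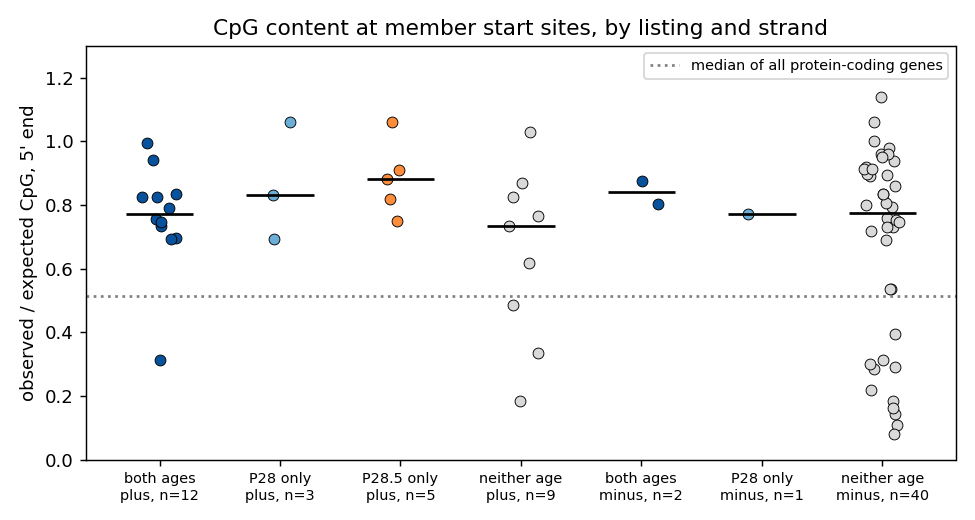
CpG ratio, observed over expected, at the outermost 5′ end (y axis) of each member (points), by the ages at which it was listed and by strand (x axis), with the median of each group as a line. The dotted line is the median of all protein-coding genes, 0.516; of the 12 plus-strand members listed at both ages, all but Ipo5 lie above it.

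The RefSeq promoter table covers 27025 genes, more than the 21774 protein-coding genes counted above. Its promoters were not matched to those of the members for CpG content. Promoters were found in this table for 60 of the 72 members (73 promoters of 300 bases, 250 of them upstream). NRF1 matches were present in 8 of these 73 (11%), against 2.71% of all 32851 promoters. They belonged to Nup50, Nup62 and Nupl1, listed at both ages, to Ran and Xpo5, listed at 1 age, and to Nup107, Ranbp1 and Rcc1, listed at neither. YY1 matches were present in 5 (6.85%, against 1.4%), those of Nup188, Nup50, Nup205, Nup88 and Lmnb2. CRE matches were present in 4 (5.48%, against 1.79%), those of Nup214 and Nupl2, listed in the P28.5 list alone, and of Nup133 and Ranbp6, listed at neither age. SP/KLF matches were present in 45 (61.6%, against 35.7%) and NFY matches in 35 (47.9%, against 37.4%). ETS matches were present in 10 (13.7%, against 8.86%). The other shares were 38.4% against 44.8% for MYB, 8.22% against 13.6% for the box bound by TBP, 4.11% against 1.56% for E2F and 2.74% against 4.38% for RFX. No ZBTB33 match was found in the 73 promoters, which allows up to 4.11%, against 0.919% of all promoters. Of the 16 promoters of members listed at both ages, 11 held SP/KLF, 10 NFY, 5 MYB, 3 NRF1 and 2 YY1 matches, and 4 (25%) the letters of the TBP box. Those letters were in promoters of Ipo5, Ipo7, Nup93 and Sun1. For Ipo5, Nup93 and Sun1 the promoter was another than the one shown above. ETS, CRE, E2F, RFX and ZBTB33 matches were each in 0 of these 16, which allows a share of up to 18.8%. On the plus strand, the 20 promoters of members listed at either age can be set beside the 7 of members listed at neither. SP/KLF matches were in 60% and 42.9% of them, NFY in 55% and 71.4%, MYB in 25% and 57.1%, and the TBP box in 25% and 14.3%. NRF1 was in 4, YY1 in 3 and CRE in 2 of the listed group and in 0 of the 7, and ETS was in 0 of the 20 and in 3 of the 7. Promoters of the same gene are counted separately, and of these 3, 2 are those of Nup37 and 1 is that of Nup155. The 7 include the promoter of Nupr1l, in the set by name alone. A count of 0 allows up to 15% of 20 promoters and 42.9% of 7, and 7 promoters are too few to set the shares apart. A match describes the letters of a window and shows no binding.

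Genes of the same machinery whose symbols lie outside the name rule were counted in the same way. Of 60 such genes, the P28 list held 16 (26.7%, beside 16.8% of all genes) and the P28.5 list 18 (30%, beside 11.6%), with 13 at both ages, beside 8.48%. Of the 32 on the plus strand, the P28 list held 15 (46.9%, beside 26.0% of plus-strand genes) and the P28.5 list 16 (50%, beside 20.4%), with 12 at both ages, beside 14.8%. Of 9 pore genes, Rae1, an mRNA export factor at the pore, was listed at both ages, Seh1l at P28 alone and Pom121l12 at P28.5 alone. Pom121l2 and Gle1, on the plus strand, and Sec13, Aaas, Pom121 and Ahctf1, on the minus strand, were listed at neither age. Of 4 transport genes, 3 were listed at both ages. These were Cse1l, the exportin that returns importin alpha to the cytoplasm, Nutf2, which imports Ran, and Snupn, the snRNP import adaptor. Of 19 mRNA export genes, both ages listed 4, namely Nxf1, Eny2, Thoc1 and Pcid2. Of 28 genes of the lamina and nuclear membrane, both ages listed 5, namely Ankle2, Icmt, Fntb, Nemp1 and Tmem43. At P28 and P28.5, 22.2% of pore and 26.3% of mRNA export genes were listed, and 21.4% and 28.6% of the last group. For all genes the shares were 16.8% and 11.6%. Icmt and Fntb modify the C-terminal end of lamins. Majin and Terb2, on the plus strand, and Terb1, on the minus strand, join meiotic telomeres to the envelope with Sun1 and were listed at neither age.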

How the data were processed

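CUT&RUN libraries were trimmed by the authors with TrimGalore, aligned to mm10 with Bowtie2 and processed with SAMtools and deepTools. They scaled coverage without blocklisted regions or duplicates, formed log2 ratios over the control, averaged replicates and split RefSeq TSSs into k-means clusters. Each deposited list gives a position and a symbol per row, with no strand, signal or count. The BRG1 libraries, peaks and tracks were not analysed here.

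Members were found by symbol in the RefSeq annotation of GRCm38.p6 and counted as listed when a row carried their symbol or a synonym of 1 gene. Positions were compared with annotated 5′ ends. CpG ratios used 500 bp on either side of the outermost 5′ end. Matching was tested on simulated lists. Shares have 95% Wilson intervals, and no test was run, since the lists hold no value per library. Every member was named by role. Promoters shown were those in the RefSeq promoter table for plus-strand members listed at both ages, with a listed position within 50 bp of the start, with members of the same role for contrast, which were limited to the plus strand after seeing the data. Members and lists were chosen with earlier results of these data known. Python 3.11.15, numpy 2.4.6 and pandas 2.3.3 were used.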

Additional observations from a re-analysis of the deposited data

How the results depend on the processing

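For the shares of members listed at P28, at P28.5 and at both ages, 8 alternatives were run, and 1 moved each share beyond its Wilson interval. With plus-strand members alone the share was 51.7% at P28, 58.6% at P28.5 and 41.4% at both ages, against 25%, 26.4% and 19.4% for all members. The share of all genes moved too with strand. It was 26.0%, 20.4% and 14.8% for plus-strand protein-coding genes, against 16.8%, 11.6% and 8.48% for those of both strands. The cause was not tested. The other 7 alternatives gave 23.6% to 27.8% at P28, 26.4% to 30.6% at P28.5 and 18.1% to 21.2% at both ages. They were symbols without synonyms, positions within 2000 or 500 bp of a 5′ end, name and position together, the set without genes matched by name alone, with 60 further genes of the machinery, and without the X-linked gene.

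No paired analysis was possible because the lists analysed here hold no value per library, and no replicate was left out for the same reason. Signal tracks were not analysed here. Depth per TSS is unknown. Differences between the ages were not tested.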
